A study of Mus musculus with 18 samples.

Results

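The response of IRF5 knockout (KO) macrophages to lipopolysaccharide (LPS) in the presence of defactinib was measured by setting the 3 libraries labelled IRF5 KO, defactinib, 2 h of LPS against the 3 libraries labelled IRF5 KO without LPS. These are 6 of the 18 RNA-seq libraries of the series. Libraries were assigned by their labels, and this pair of groups was chosen with the tightness of its replicates known. Bone marrow cells of IRF5 KO mice were grown for 8 days with GM-CSF to give bone marrow-derived macrophages (BMDMs), and both groups carry the same knockout. The stimulated group received 3.5 μM defactinib, a small-molecule inhibitor of the kinases PYK2 and FAK, for 1 h and then 100 ng/ml LPS for 2 h with the inhibitor. The unstimulated group received neither, and whether vehicle was added to it is not clear. The sample labels name DMSO, and the authors describe a DMSO control for cells without and with LPS. The column names of the count table read as untreated. LPS and defactinib both differ between the 2 groups, so their contributions cannot be told apart in this comparison. The remaining libraries are 3 labelled IRF5 KO, LPS with DMSO, and 9 of wild-type (WT) cells in the same 3 conditions. The sources do not say which part of Irf5 is deleted in these mice, nor whether the 3 libraries of a group came from separate animals, so the p-values measure the spread between these libraries.

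LPS is sensed by TLR4 with its co-receptor CD14. The adaptors TIRAP and MyD88 lead from the cell surface to NF-kB and to the MAP kinases, and the adaptors TRAM (Ticam2) and TRIF (Ticam1) lead from endosomes to IRF3 and interferon-beta. IRF5 is a transcription factor that acts downstream of MyD88 and is known in macrophages for its part in the induction of Il12b, Il6, Tnf and Il23a. Secreted interferon-beta then signals through its own receptor to a large set of interferon-stimulated genes.

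Counted read pairs ranged from 40682747 to 61949143 in the 6 libraries, and the median SD of a gene's log2 level was 0.099 in the unstimulated group and 0.091 in the LPS defactinib group. Levels are given as CPM, the read pairs of a gene scaled to a common library total with TMM factors. Irf5 itself, the targeted gene, was at 345, 404 and 372 CPM in the unstimulated libraries and at 364, 388 and 350.3 CPM after LPS with defactinib (log2 fold change -0.02, SE 0.068, adjusted p = 0.762). Its counts are summed over all exons of the gene, so a deletion within it would not show, and they neither check the genotype labels nor go against them. The kinases that defactinib targets were little changed in RNA, with Ptk2b (PYK2) at 188, 172 and 190 CPM against 162, 165 and 150.3 CPM (log2 fold change -0.21, SE 0.06, adjusted p = 0.00821). Ptk2 (FAK) was at 34, 38.5 and 31.1 CPM against 32.6, 33.5 and 33.3 CPM (log2 fold change -0.06, SE 0.076, adjusted p = 0.488). Neither passed the threshold of a call. Macrophage markers were abundant in every library, their 10 genes summing to 10600 to 15300 CPM without LPS and to 18100 to 19300 CPM after it. Neutrophil markers summed to 1110 to 1760 CPM and 2510 to 2720 CPM, with 4 of the 11 below 1 CPM in all 6 libraries and most of the sum from Mmp8 (1670, 1019 and 1597 CPM and 2564, 2369 and 2507 CPM), and dendritic cell markers to 150 to 211 CPM and 308 to 318 CPM. The 12 markers of T, B and NK cells stayed at sums of 0.884 to 1.56 CPM, with Ms4a1 at 0, the 8 fibroblast markers at 9.61 to 13.3 CPM, with Dcn at 0, and the 11 mast cell and basophil markers at 50.5 to 58.5 CPM, with Mcpt4 and Tpsb2 at 0. Of the 8 neutrophil markers tested, S100a8 and S100a9 were called higher and Cxcr2 lower (log2 fold change -4.51), and Mmp8 was not called. In such bulk libraries, fewer cells of a type and less RNA per cell cannot be told apart. The part of the macrophage, neutrophil and dendritic cell sums in the results was not tested. Replicate 2 of the unstimulated group differed from the other 2 with a chi-square per gene of 36.8 and 33.1, against 7.09 between them, and replicate 2 of the LPS defactinib group with 18.2 and 18.2, against 4.79. Without the former 1224 genes were called higher and 2635 lower, and without the latter 1165 and 2771. Outside these 6 libraries, replicate 3 of the IRF5 KO group labelled LPS with DMSO and replicate 3 of the WT group labelled LPS with defactinib stood apart from the other 2 of their groups. Replicate 3 of the WT unstimulated group did so too, with a chi-square per gene of 55.2 and 52.4 from the other 2, against 3.82 between them, and 1.68% of reads in lincRNAs against 0.377% and 0.418%.

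In the absence of IRF5, LPS with defactinib was followed by a strong inflammatory response. Genes for interferon-beta, cyclooxygenase-2, neutrophil chemokines, EGF-family ligands and IL-12 family cytokines were among the steepest rises, while 12 of 20 chemoattractant receptor genes, 12 of 29 lineage transcription factor genes and 24 of 60 interferon genes fell. A gene was called at an adjusted p below 0.05 (edgeR's quasi-likelihood test, Benjamini-Hochberg) and a change of more than 2-fold, and of 14437 genes tested 1114 were called higher (7.72%) and 2677 lower (18.5%). The 2 groups of libraries did not overlap for 5033 of the 14437 genes in the higher direction and for 5805 in the lower. Groups that do not overlap are therefore common among all genes. Scaling by library size alone shifted the median log2 fold change of all genes from -0.04 to -0.37 and the calls to 759 higher and 3742 lower. Changes below are relative to the TMM scaling, and those near 2-fold depend on it.

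**Figure D1:**
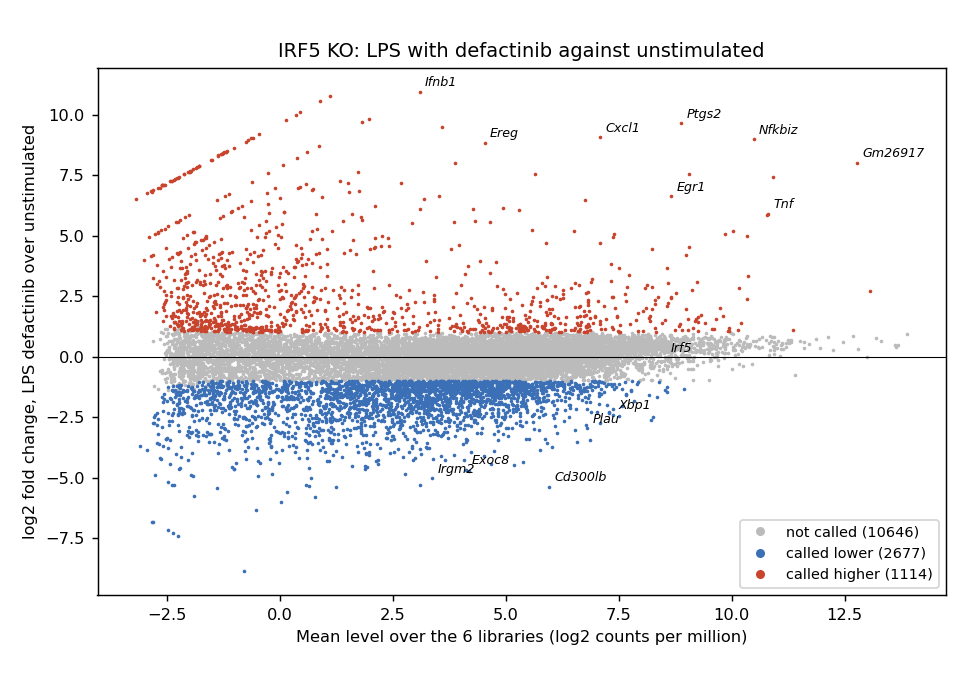
Each point is 1 of the 14437 tested genes, placed by its mean level over the 6 libraries (x axis, log2 CPM) and its log2 fold change, LPS defactinib over unstimulated (y axis), with called genes in red (1114 higher) and blue (2677 lower). Genes with few reads form the slanted lines at the left, and abundant Nfkbiz, Tnf and Ptgs2 stand at the upper right.

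The promoters of several members of this response were read from RefSeq (GRCm38.p6) as the 250 bases before the annotated start, 5′ to 3′ on the gene's strand. The genes were picked by hand, and Nfkbiz, Ereg and Il23a, also picked, had no window. Windows were read for 14 genes, 7 that rose and 7 that fell. Of these, 7 are printed, chosen after the matches were seen: 5 of genes that rose with a match to the NF-kB consensus, that of Ptgs2, which rose with no match, and that of Irgm2, which fell with an interferon motif. Capitals mark matches on either strand to the NF-kB consensus, the AP-1 motif TGANTCA, the CRE motif TGACGTCA, the interferon-stimulated response element, the CArG box and the TATA motif TATAAA. The GC box GGGCGG, which most windows hold, is not marked. The windows are those of Ifnb1 (chr4:88522795-88523044, minus strand), Cxcl1 (chr5:90890995-90891244, plus strand), Cxcl2 (chr5:90903649-90903898, plus strand), Il6 (chr5:30012864-30013113, plus strand), Cxcl10 (chr5:92348890-92349139, minus strand) and Ptgs2 (chr1:150099781-150100030, plus strand), which rose, and of the interferon-inducible GTPase gene Irgm2 (chr11:58214727-58214976, plus strand), which fell.
Ifnb1: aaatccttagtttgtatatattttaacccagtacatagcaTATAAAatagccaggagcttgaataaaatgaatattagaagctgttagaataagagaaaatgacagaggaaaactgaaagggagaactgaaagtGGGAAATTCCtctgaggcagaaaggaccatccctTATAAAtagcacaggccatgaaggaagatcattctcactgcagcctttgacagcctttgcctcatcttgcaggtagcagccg
Cxcl1: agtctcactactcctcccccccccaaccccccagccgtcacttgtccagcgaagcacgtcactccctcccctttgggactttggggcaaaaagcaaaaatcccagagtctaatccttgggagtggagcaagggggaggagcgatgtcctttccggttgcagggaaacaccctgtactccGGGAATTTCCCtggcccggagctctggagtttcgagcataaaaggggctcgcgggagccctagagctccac
Cxcl2: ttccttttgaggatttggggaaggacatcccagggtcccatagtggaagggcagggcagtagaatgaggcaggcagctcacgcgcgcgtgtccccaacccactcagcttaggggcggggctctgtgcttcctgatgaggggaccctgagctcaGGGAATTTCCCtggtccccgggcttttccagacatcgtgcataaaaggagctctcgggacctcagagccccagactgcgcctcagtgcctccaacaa
Il6: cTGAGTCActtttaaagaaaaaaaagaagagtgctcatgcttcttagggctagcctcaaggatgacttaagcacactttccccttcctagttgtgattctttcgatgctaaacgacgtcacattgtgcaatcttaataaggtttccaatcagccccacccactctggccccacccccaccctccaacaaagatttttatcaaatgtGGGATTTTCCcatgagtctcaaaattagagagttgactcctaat
Cxcl10: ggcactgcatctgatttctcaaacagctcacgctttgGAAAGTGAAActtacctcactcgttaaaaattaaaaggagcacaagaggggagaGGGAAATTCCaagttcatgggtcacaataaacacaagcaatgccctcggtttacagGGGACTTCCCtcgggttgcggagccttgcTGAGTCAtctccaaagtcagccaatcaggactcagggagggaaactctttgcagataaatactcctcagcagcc
Ptgs2: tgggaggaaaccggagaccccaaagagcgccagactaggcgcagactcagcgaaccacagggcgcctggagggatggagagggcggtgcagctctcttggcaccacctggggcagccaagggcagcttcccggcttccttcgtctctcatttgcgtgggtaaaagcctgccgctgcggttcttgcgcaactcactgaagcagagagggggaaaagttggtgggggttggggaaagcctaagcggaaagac
Irgm2: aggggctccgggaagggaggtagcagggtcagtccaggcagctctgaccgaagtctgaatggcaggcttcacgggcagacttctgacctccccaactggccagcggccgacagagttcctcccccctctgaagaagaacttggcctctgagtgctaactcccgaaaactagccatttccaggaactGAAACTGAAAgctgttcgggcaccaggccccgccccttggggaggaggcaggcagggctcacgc

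The NF-kB consensus was in 5 of the 7 windows read for genes that rose, and in Cxcl1 and Cxcl2 it matched on both strands with 1 base of offset. The windows of Ptgs2 and Il12b, which also rose, held none of the marked motifs. Of the 7 windows of genes that fell none held the NF-kB consensus, and 4 (Exoc8, Tor4a, Bmf and N4bp3) held none of the marked motifs. Since the 14 genes were picked by hand, these counts do not describe all genes that rose or fell. A response element for interferon stood in the Cxcl10 window and in the Irgm2 window. Windows were at hand for 10058 of the 14437 tested genes, and 4.42% of them held the NF-kB consensus, against 7.53% of the 531 windows of genes called higher and 4.27% of the 1992 windows of genes called lower. The TATA motif was in 6.41% of all windows, in 10.4% of those called higher and in 6.02% of those called lower. For the interferon-stimulated response element the shares were 2.85%, 4.52% and 3.46%, for AP-1 4.27%, 6.03% and 3.87%, for CRE 2.68%, 2.64% and 2.61%, and for the CArG box 1.06%, 0.942% and 1%. The GC box stood in 58.6% of all windows, 52.9% of those called higher and 56.9% of those called lower. A match describes letters in this window and does not show binding.

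Of 33 tested members of the inflammatory cytokine list, 20 were called higher and 5 lower (60.6% and 15.2%, against 7.72% and 18.5% of all genes), with a median log2 fold change of 1.42 against -0.04 over all genes. Il12b, which encodes the p40 subunit shared by IL-12 and IL-23, was at 5.17, 6.39 and 5.57 CPM unstimulated and at 1080, 1008 and 1070 CPM after LPS with defactinib (log2 fold change 7.53, SE 0.093, adjusted p = 6.73e-14). Il23a, the p19 subunit of IL-23, went from 0.0964, 0.0979 and 0.141 CPM to 28.2, 29 and 30.3 CPM (log2 fold change 8.01, SE 0.14, adjusted p = 9.64e-13). The groups of both genes lie far apart, with little spread within each. Tnf was at 60.1, 56.9 and 60.7 CPM and then at 3565, 3550 and 3468 CPM (log2 fold change 5.90, SE 0.076, adjusted p = 7.68e-14). Il6 was at 0.418, 0.725 and 0.482 CPM and then at 104, 91.9 and 101 CPM (log2 fold change 7.53, SE 0.13, adjusted p = 8.36e-13). All 3 stimulated libraries of Tnf and Il6 stood above every unstimulated library, as for 5033 of the 14437 tested genes.

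Il1b and Il1a, the genes of the IL-1 cytokines, rose together. Il1b was at 57.2, 48.5 and 53.6 CPM without LPS and at 1857, 1729 and 1781 CPM with LPS and defactinib (log2 fold change 5.07, SE 0.082, adjusted p = 5.32e-13). For Il1a the values were 86.1, 67.8 and 83.4 CPM and 2609, 2356 and 2582 CPM (log2 fold change 4.99, SE 0.10, adjusted p = 3.87e-12). The growth factors Ereg and Areg, ligands of the EGF receptor, were among the largest rises of all genes. Ereg went from 0.0803, 0.0784 and 0.141 CPM to 46.9, 45 and 45.9 CPM (log2 fold change 8.83, SE 0.13, adjusted p = 2.53e-13). Areg went from 0.177, 0.157 and 0.362 CPM to 22.8, 21.2 and 24.1 CPM (log2 fold change 6.63, SE 0.18, adjusted p = 2.46e-11). Lif, a cytokine of the IL-6 family, rose from 4.45, 5.23 and 3.78 CPM to 112, 119.8 and 112 CPM (log2 fold change 4.67, SE 0.098, adjusted p = 4.40e-12). Csf2, which encodes GM-CSF, went from 0.0482, 0.0588 and 0 CPM to 5.68, 5.64 and 5.56 CPM (log2 fold change 7.17, SE 0.31, adjusted p = 1.13e-09). The 5 members called lower were Il16, Pdgfb, Tnfsf10, Tnfsf14 and Tnfsf8, with Il16 at 10.2, 9.23 and 9.28 CPM against 1.17, 1.91 and 1.42 CPM (log2 fold change -2.68, SE 0.16, adjusted p = 2.00e-08). Il10, the main anti-inflammatory cytokine of macrophages, was too low to be tested, at 0.0161, 0 and 0.0201 CPM and then at 0.192, 0.2 and 0.264 CPM.

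Of 23 tested chemokine genes 9 were higher, none lower and 14 not called (39.1% and 0%, against 7.72% and 18.5% of all genes), with a median log2 fold change of 0.71. Cxcl1 and Cxcl2 attract neutrophils through CXCR2. Cxcl1 was at 0.562, 0.235 and 0.703 CPM unstimulated and at 260.1, 277 and 279 CPM after LPS with defactinib (log2 fold change 9.07, SE 0.17, adjusted p = 2.46e-11). Cxcl2 was at 24.8, 20 and 23.4 CPM and 3804, 3743 and 4042 CPM (log2 fold change 7.41, SE 0.11, adjusted p = 1.77e-13). Cxcl10, a ligand of CXCR3, rose from 2.68, 2.33 and 2.11 CPM to 222, 199 and 223 CPM (log2 fold change 6.49, SE 0.094, adjusted p = 1.80e-13). The CC chemokines of inflammation rose less on the log2 scale, Ccl4 from 96.5, 71 and 83.9 CPM to 689, 672 and 708 CPM (log2 fold change 3.04, SE 0.10, adjusted p = 7.31e-10). Ccl5 went from 19.8, 19.7 and 20 CPM to 133, 142 and 124 CPM (log2 fold change 2.75, SE 0.064, adjusted p = 6.15e-12). Ccl3 went from 218, 202 and 209 CPM to 819, 794 and 809.8 CPM (log2 fold change 1.94, SE 0.057, adjusted p = 4.22e-11). Ccl22, Ccl17 and Ccl6 were already high in unstimulated cells and did not pass, with log2 fold changes of 0.71, 0.32 and 0.28. Under a correction for gene length 1 chemokine gene was called lower.

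**Figure D2:**
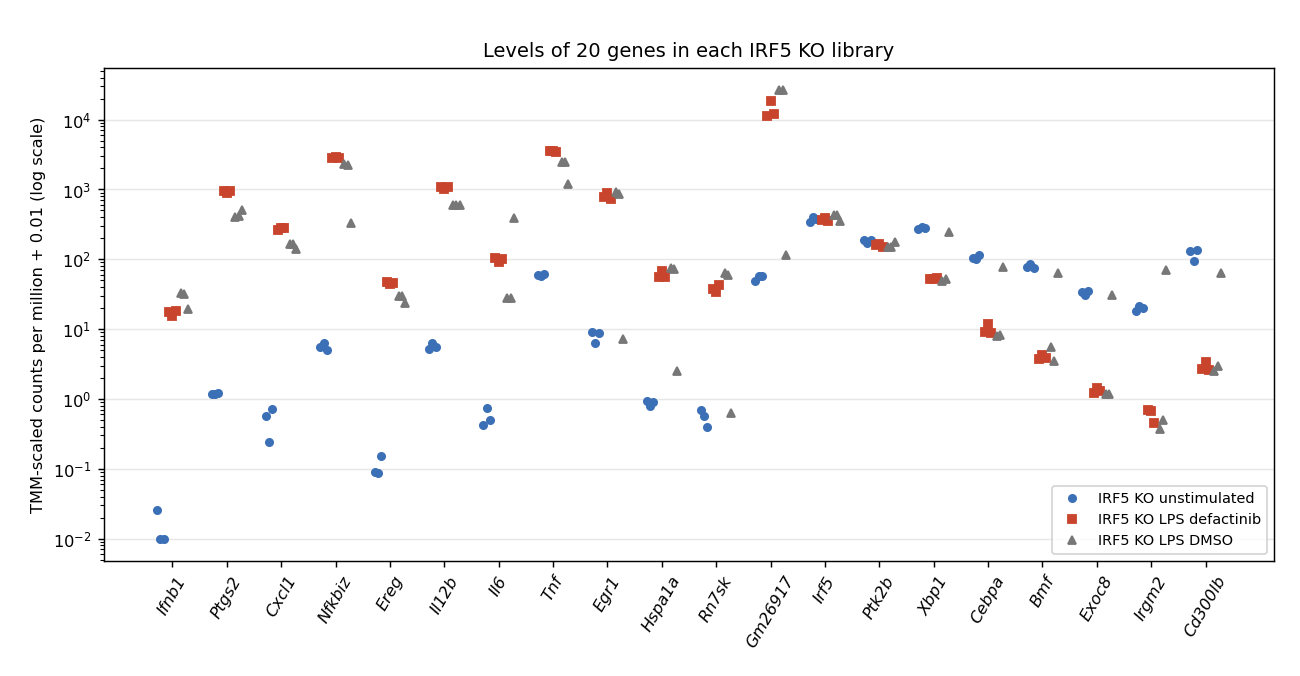
Levels of 20 genes in the 3 unstimulated (blue circles), 3 LPS defactinib (red squares) and 3 LPS DMSO (grey triangles) libraries of IRF5 KO macrophages, as CPM + 0.01 on a log axis, 1 symbol per library. Blue and red symbols do not overlap for the genes shown other than Irf5, as for 5033 genes higher and 5805 lower of the 14437 tested. Often 1 of the 3 grey symbols lies apart from the other 2.

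Of 22 tested members of the NF-kB list 8 were higher, 2 lower and 12 not called (36.4% and 9.09%, against 7.72% and 18.5% of all genes). Nfkbiz (chr16:55811375-55838899), which encodes the nuclear cofactor IkB-zeta that Il12b and Il6 are known to need, was at 5.59, 6.35 and 5.04 CPM and then at 2825, 2897 and 2851 CPM (log2 fold change 8.98, SE 0.10, adjusted p = 4.34e-14). Tnfaip3, the gene of the deubiquitinase A20, rose from 62.8, 61.6 and 57.2 CPM to 3518, 3465 and 3483 CPM (log2 fold change 5.85, SE 0.078, adjusted p = 9.11e-14). Nfkbia, which encodes IkB-alpha, went from 127, 125 and 126 CPM to 1038, 1133 and 1042 CPM (log2 fold change 3.09, SE 0.063, adjusted p = 2.42e-12). For these 3 genes every stimulated library stood above every unstimulated one, as for 5033 of the 14437 tested genes. Of the subunits, Rel and Nfkb1 were called higher, Rel going from 115, 146 and 116 CPM to 692, 663 and 703 CPM (log2 fold change 2.45, SE 0.09, adjusted p = 6.50e-10). Nfkbie and Tnip2, both inhibitors of the pathway, were called lower.

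Of 24 tested genes of the TLR4 complex and its adaptors, 3 were higher (Cd14, Irak2 and Traf6, 12.5%) and 5 lower (Tab1, Ticam1, Ticam2, Tirap and Tlr4, 20.8%). These shares are near those of all genes (7.72% and 18.5%), so the values below describe single genes. Tlr4 fell from 125, 102 and 120.3 CPM to 23.1, 21.9 and 24.1 CPM (log2 fold change -2.33, SE 0.081, adjusted p = 2.04e-10). Tirap, the adaptor that brings MyD88 to TLR4, fell from 31.2, 27.2 and 31 CPM to 4.13, 3.62 and 3.48 CPM (log2 fold change -2.99, SE 0.098, adjusted p = 1.03e-10). Ticam1, the gene of TRIF, went from 21.6, 23.2 and 21.9 CPM to 3.77, 4.68 and 3.11 CPM (log2 fold change -2.52, SE 0.12, adjusted p = 3.12e-09). Tab1, a partner of the kinase TAK1, had the steepest fall of the list, from 15.1, 18 and 15.1 CPM to 1.25, 1.15 and 0.976 CPM (log2 fold change -3.81, SE 0.14, adjusted p = 2.01e-10). Cd14 rose from 115, 91.7 and 118 CPM to 379.5, 385 and 365 CPM (log2 fold change 1.80, SE 0.087, adjusted p = 7.73e-09). Myd88 was at 183, 183 and 191 CPM and 99.9, 106 and 103 CPM, a log2 fold change of -0.85 that did not pass, although it did under scaling by library size alone.

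Interferon-beta was induced while 24 of the 60 tested interferon genes fell. Ifnb1 (chr4:88522025-88522774) was at 0.0161, 0 and 0 CPM without LPS, which is 1 read in 3 libraries, and at 17.6, 15.4 and 17.9 CPM with LPS and defactinib, which is 2385 reads. The ratio was 2770, with an exact 95% interval of 497 to 109000 that covers counting error only, and the adjusted p was 1.21e-11. Of the 60 tested genes of the interferon list 6 were higher (Ifnb1, Ifi205, Ifit1, Isg15, Oasl1 and Slfn4) and 24 lower (10% and 40%), with a median log2 fold change of -0.68. The falling genes were more frequent here than among all genes, of which 18.5% fell, but no test was made of the list. Isg15, a ubiquitin-like modifier, rose from 12.2, 11.6 and 10.2 CPM to 114, 108 and 107 CPM (log2 fold change 3.27, SE 0.073, adjusted p = 4.40e-12). Oasl1 went from 4.26, 4.08 and 4.14 CPM to 24.8, 27.5 and 24.8 CPM (log2 fold change 2.63, SE 0.087, adjusted p = 1.09e-10). Ifit1 went from 6.11, 5.97 and 5.77 CPM to 17.6, 16.4 and 17.3 CPM (log2 fold change 1.52, SE 0.087, adjusted p = 1.26e-08). Irgm2, an immunity-related GTPase, fell from 18.4, 21.4 and 20.2 CPM to 0.68, 0.666 and 0.448 CPM (log2 fold change -5.03, SE 0.15, adjusted p = 3.69e-11). Igtp went from 8.9, 8.48 and 8.5 CPM to 1.9, 2.17 and 2.35 CPM (log2 fold change -2.02, SE 0.12, adjusted p = 2.40e-08). Stat2, a subunit of the factor that interferon activates, went from 99.7, 121 and 103 CPM to 45.7, 47.7 and 45.4 CPM (log2 fold change -1.22, SE 0.073, adjusted p = 1.91e-08). Irgm2 is not a member of the list, on which Tgtp2 had the steepest fall, from 0.803, 1.37 and 0.744 CPM to 0, 0.0888 and 0.0527 CPM (log2 fold change -4.41, SE 0.59, adjusted p = 2.67e-05), although a nearly identical copy, Tgtp1, makes its counts uncertain. Among the IRF factors, Irf9, Irf2 and Irf4 were lower (37.5% of the 8 tested, against 18.5% of all genes) and none was higher. With DESeq2 size factors 1 was higher and 3 lower, and under the gene length correction or with protein-coding genes for scaling 1 and 2. Scaling by library size alone gave none higher and 4 lower. Irf4 (log2 fold change -1.07) lost its call under the length correction (-0.976) and with protein-coding genes for scaling (-0.982). It also lost it in a test against the 2-fold limit (adjusted p = 0.216). Irf9, the DNA-binding partner of Stat2, went from 49.2, 49.6 and 46.8 CPM to 12.5, 12.2 and 13.3 CPM (log2 fold change -1.94, SE 0.066, adjusted p = 1.26e-10). Irf1 was at 50.5, 46.4 and 50.2 CPM and 96.2, 97.2 and 94.9 CPM, with a log2 fold change of 0.97 that did not pass.

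Of 32 tested immediate-early transcription factors 16 were higher and 6 lower (50% and 18.8%, against 7.72% and 18.5% of all genes), so the share that fell is that of all genes. Egr1, a zinc finger factor that serum and MAP kinases induce, was at 9.22, 6.41 and 8.82 CPM and then at 772, 888 and 741 CPM (log2 fold change 6.61, SE 0.15, adjusted p = 1.82e-10). Fosb rose from 0.241, 0.451 and 0.281 CPM to 15.8, 16.2 and 12.6 CPM (log2 fold change 5.53, SE 0.20, adjusted p = 1.92e-10). Fos went from 7.07, 4.23 and 8.26 CPM to 48.4, 49.8 and 49 CPM (log2 fold change 2.91, SE 0.19, adjusted p = 2.28e-06). The nuclear receptor gene Nr4a1 went from 2.39, 2.94 and 3.5 CPM to 31.3, 33.2 and 29.1 CPM (log2 fold change 3.42, SE 0.12, adjusted p = 2.19e-10). No unstimulated library of these genes reached any stimulated one, as for 5033 of the 14437 tested genes. Junb and Klf6, at 116, 113 and 136 CPM and 359.8, 329.8 and 331 CPM without LPS, rose by 2.64 and 2.01 on the log2 scale (adjusted p = 3.61e-07 and 1.02e-10). Myc, which drives growth, fell from 38.9, 39.1 and 37.6 CPM to 7.27, 7.32 and 6.7 CPM (log2 fold change -2.44, SE 0.071, adjusted p = 4.02e-11). Klf4 went from 17.1, 15.2 and 17.8 CPM to 5.79, 8.14 and 7.09 CPM (log2 fold change -1.26, SE 0.12, adjusted p = 1.46e-06).

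Of 19 tested MAP kinase phosphatase and Sprouty family genes, 9 were higher and 6 lower (47.4% and 31.6%, against 7.72% and 18.5% of all genes). Dusp14 and Dusp8 rose by 4.88 and 3.69 on the log2 scale, with adjusted p of 6.30e-11 and 1.37e-07, and Dusp1, the classic inducible phosphatase of p38 and JNK, went from 16, 16 and 18.6 CPM to 73.5, 82.7 and 73.8 CPM (log2 fold change 2.19, SE 0.078, adjusted p = 2.01e-10). Dusp6, a phosphatase of ERK, fell from 40, 27.2 and 37.5 CPM to 2.51, 2.02 and 2.32 CPM (log2 fold change -3.93, SE 0.16, adjusted p = 8.45e-09). Among feedback regulators of cytokine signalling, Socs3 rose from 52.9, 49.4 and 54.2 CPM to 939, 1041 and 905 CPM (log2 fold change 4.20, SE 0.076, adjusted p = 9.64e-13). Zfp36, the gene of an RNA-destabilising protein, went from 70.4, 69.7 and 75 CPM to 508, 577 and 502 CPM (log2 fold change 2.88, SE 0.07, adjusted p = 8.95e-12). Socs1 went in the other direction, from 51.1, 39.4 and 61.1 CPM to 4.97, 7.52 and 5.41 CPM (log2 fold change -3.09, SE 0.20, adjusted p = 2.47e-06).

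Enzymes of inflammatory mediators had 7 of 25 tested genes higher and 3 lower (28% and 12%, against 7.72% and 18.5% of all genes). Ptgs2 (chr1:150100031-150108227), which encodes cyclooxygenase-2, the inducible enzyme of prostaglandin synthesis, was at 1.17, 1.16 and 1.23 CPM and then at 966, 903 and 964 CPM (log2 fold change 9.64, SE 0.087, adjusted p = 4.83e-15), with the 2 groups far apart and little spread in each. Acod1, which makes itaconate, rose from 394, 393 and 393 CPM to 837, 803 and 827 CPM (log2 fold change 1.07, SE 0.054, adjusted p = 4.13e-09), though this call was lost under scaling by library size alone, under the length correction and in fits with the other groups. Nos2, inducible nitric oxide synthase, rose from 0.643, 0.411 and 0.402 CPM to 1.01, 1.13 and 0.923 CPM (log2 fold change 1.06, SE 0.28, adjusted p = 0.00437) and stayed low. Of the inflammasome genes 4 of 15 were higher (Casp4, Il1b, Mefv and Nlrp3) and 1 lower (Nlrp1b), or 26.7% and 6.67%, and 3 were lower under scaling by library size alone. Nlrp3, the sensor of that name, went from 103, 102 and 104 CPM to 535, 520.3 and 516 CPM (log2 fold change 2.35, SE 0.053, adjusted p = 5.18e-12).

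Of 18 tested heat shock chaperone genes 4 were higher and none lower (22.2% and 0%, against 7.72% and 18.5% of all genes). Hspa1a and Hspa1b, paralogs of inducible HSP70, went from 0.916, 0.784 and 0.884 CPM to 56.1, 68.6 and 56.4 CPM and from 1.09, 0.999 and 1.37 CPM to 72.2, 88 and 72.2 CPM, with log2 fold changes of 6.12 and 6.07, and because they are near-identical their uniquely mapped reads are uncertain in how they divide between them. Hspb1 rose from 0.0321, 0.0392 and 0 CPM to 1.38, 2 and 1.64 CPM (log2 fold change 5.95, SE 0.47, adjusted p = 2.09e-07). Dnajb1 was the other member called higher. Among 25 tested genes of ATF4 and the unfolded protein response, Ppp1r15a, which restores translation after stress, rose from 20.6, 22.8 and 19.6 CPM to 300.5, 311 and 282 CPM (log2 fold change 3.83, SE 0.073, adjusted p = 1.65e-12). Xbp1 went from 274, 288 and 276 CPM to 51.4, 52.7 and 54.6 CPM (log2 fold change -2.40, SE 0.056, adjusted p = 5.69e-12). Ddit3 went from 11.6, 11.6 and 11.4 CPM to 4.01, 3.04 and 3.59 CPM (log2 fold change -1.70, SE 0.12, adjusted p = 7.01e-08). The list had 5 higher and 2 lower (20% and 8%), and 2 and 2 under scaling by library size alone.

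Of 18 tested nuclear noncoding RNAs and snoRNA hosts 6 were higher and 3 lower (33.3% and 16.7%, against 7.72% and 18.5% of all genes), with a median log2 fold change of 0.06. Rn7sk, the 7SK RNA that holds the kinase P-TEFb inactive, was at 0.675, 0.568 and 0.382 CPM and then at 37.3, 34.5 and 42.9 CPM (log2 fold change 6.11, SE 0.15, adjusted p = 1.62e-11). The long noncoding RNA Gm26917 was at 48.5, 56.9 and 57.6 CPM and 11400, 18400 and 12000 CPM (log2 fold change 8.00, SE 0.24, adjusted p = 1.24e-08). Gm26917 took 0.00546% to 0.00687% of the reads in the unstimulated libraries and 1.06% to 1.7% in the LPS defactinib libraries. Malat1 rose from 111, 132 and 126 CPM to 318, 322 and 405 CPM (log2 fold change 1.5, SE 0.10, adjusted p = 3.24e-07). Neat1 went from 202, 231 and 200.3 CPM to 73.5, 77.3 and 76.1 CPM (log2 fold change -1.48, SE 0.066, adjusted p = 1.28e-09). Of the 24 tested small nuclear RNA genes of the spliceosome and related particles 21 were called higher (87.5%) and 2 lower (Gm25047, with 610 and 239 reads, and Gm26484, with 50 and 2), and all 24 held 5835 reads in the 3 LPS defactinib libraries against 764 in the 3 unstimulated ones. Against a floor of 3 reads over the unstimulated group, Gm23444 was at least 233-fold higher and Rnu12 at least 45.7-fold higher, and 12 of the 24 had no unstimulated read. With those 12 at that bound, the median log2 fold change of the 24 was 5.97, and as fitted it was 8.17. Those 12 passed the filter on counts only through the LPS defactinib group. The share called higher and both medians are thus partly fixed by the filter and are no measure of the class. Such genes belong to multicopy families, so their counts of uniquely mapped reads are uncertain. Small noncoding RNAs together took 0.169% to 0.336% of reads in the LPS defactinib libraries and 0.0478% to 0.0708% in the unstimulated ones. In the WT unstimulated group they took 0.0464%, 0.0641% and, in replicate 3, 0.309%, so a library without LPS reached the same range. The part of such spread between libraries in the rise was not tested. The genes of the 7SK-binding proteins Hexim1 and Mepce fell, with log2 fold changes of -2.38 and -2.74 (adjusted p = 1.82e-10 and 8.73e-11), and Cdk9, the kinase of P-TEFb, stood at 0.18 and did not pass. Of 20 tested genes of the P-TEFb and 7SK list 3 were higher and 4 lower (15% and 20%), a share of falls near the 18.5% of all genes, and 1 and 5 under scaling by library size alone. Genes of a single exon took 8.71% to 9.57% of reads in the LPS defactinib libraries and 4.98% to 5.29% in the unstimulated ones, and genes encoded in the mitochondrion 0.835% to 0.926% and 0.477% to 0.54%. Among the libraries outside this comparison, Gm26917 took 2.18% to 4.15% of reads in the WT LPS defactinib group and 0.0112% to 0.0122% in the WT LPS DMSO group. The part of these shares in the results was not tested.

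Of 13 tested mitochondrially encoded genes 9 were called higher (69.2%, against 7.72% of all genes) and 4 did not pass, with a median log2 fold change of 1.10. For example, mt-Cytb, the gene of cytochrome b, was at 626, 605 and 569 CPM and 1389, 1279 and 1412 CPM (log2 fold change 1.18, SE 0.066, adjusted p = 9.64e-09). Under scaling by library size alone and under the length correction none of the 13 was called, and under the latter mt-Atp8 changed sign.

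Chemoattractant and purinergic receptor genes fell in larger shares than the 18.5% of all genes, without a test of the lists. Of 20 tested chemokine and chemoattractant receptors, 3 were higher and 12 lower, with a median log2 fold change of -1.57. Ccr2, the receptor that draws monocytes to CCL2, was at 268, 206 and 250.2 CPM and then at 60.6, 58.3 and 63 CPM (log2 fold change -1.99, SE 0.09, adjusted p = 6.15e-09). Cxcr2, the receptor of Cxcl1 and Cxcl2, went from 5.41, 9.79 and 6.01 CPM to 0.209, 0.488 and 0.237 CPM (log2 fold change -4.51, SE 0.34, adjusted p = 1.03e-06). S1pr2, a sphingosine-1-phosphate receptor, went from 52.8, 41.2 and 50.9 CPM to 1.97, 2.55 and 2.11 CPM (log2 fold change -4.45, SE 0.13, adjusted p = 8.24e-11). The receptors Ccrl2, Ccr7 and Ptafr were higher, Ccrl2 going from 12, 8.8 and 10.3 CPM to 324, 315 and 329.5 CPM (log2 fold change 4.95, SE 0.10, adjusted p = 8.48e-12). Ccr7, at a log2 fold change of 1.27, lost its call under scaling by library size alone (0.94). It also lost it in a fit of 12 libraries that added WT groups (adjusted p = 0.0503, edgeR). Purinergic and adenosine receptors had 9 of 17 tested members lower and 2 higher, or 9 and 1 under scaling by library size alone. The 2 that rose were the adenosine receptors Adora2a (16.3, 15.4 and 15.9 CPM to 117, 127 and 117 CPM, log2 fold change 2.92, SE 0.062, adjusted p = 2.84e-12) and Adora2b (log2 fold change 1.26, SE 0.11, adjusted p = 1.77e-06). Adora3 went from 3.62, 3.64 and 3.12 CPM to 0.349, 0.133 and 0.185 CPM (log2 fold change -3.88, SE 0.27, adjusted p = 6.88e-08).

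Of 29 tested transcription factors of the myeloid lineage 12 fell and 4 rose (41.4% and 13.8%, against 18.5% and 7.72% of all genes), and 14 and 2 under scaling by library size alone. Cebpa, a determinant of granulocyte and monocyte fate, went from 106, 99.9 and 116 CPM to 9.19, 12 and 8.94 CPM (log2 fold change -3.42, SE 0.11, adjusted p = 7.64e-10). Hhex went from 27.9, 27.4 and 27 CPM to 4.32, 4.28 and 3.59 CPM (log2 fold change -2.75, SE 0.091, adjusted p = 1.11e-10). Bhlhe41 went from 62.1, 40.5 and 63.4 CPM to 12.3, 11.4 and 12.1 CPM (log2 fold change -2.21, SE 0.17, adjusted p = 4.93e-06). Spi1 (PU.1) was at 398, 363 and 432 CPM and 267, 304 and 251 CPM and did not pass (log2 fold change -0.54, SE 0.082, adjusted p = 1.01e-04). Genes of proliferation and DNA replication fell in 12 of 37 tested members and rose in 1, Mki67 (32.4% and 2.7%), and under scaling by library size alone 18 were lower and none higher. Plk1, a mitotic kinase, went from 14.3, 24.6 and 15.2 CPM to 2.02, 2.09 and 1.64 CPM (log2 fold change -3.22, SE 0.24, adjusted p = 2.18e-06). Cdc20 went from 14.4, 28.2 and 17.3 CPM to 2.55, 1.95 and 2.45 CPM (log2 fold change -3.10, SE 0.27, adjusted p = 1.32e-05). Unstimulated replicate 2 stood above the other 2 for both genes. The stimulated libraries lay below all 3, as for 5805 of the 14437 tested genes.

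Steep falls were spread over genes of varied roles. Cd300lb (chr11:114922781-114934386), an activating receptor of myeloid cells, went from 132, 94.6 and 134 CPM to 2.67, 3.4 and 2.58 CPM (log2 fold change -5.38, SE 0.18, adjusted p = 2.47e-08). Exoc8, a subunit of the exocyst, went from 34.5, 30.4 and 35.1 CPM to 1.22, 1.42 and 1.29 CPM (log2 fold change -4.67, SE 0.11, adjusted p = 5.41e-12). Bmf, a pro-apoptotic BCL2 family member, went from 76.6, 87 and 75.6 CPM to 3.68, 4.19 and 3.85 CPM (log2 fold change -4.35, SE 0.086, adjusted p = 2.06e-12). Tor4a went from 71.6, 62.7 and 74.5 CPM to 3.28, 3.19 and 2.79 CPM (log2 fold change -4.48, SE 0.095, adjusted p = 2.84e-12). In all 4 genes the stimulated libraries lay far below the unstimulated ones. Plau, the urokinase that activates plasmin, fell from 215, 174 and 205 CPM to 25.8, 24.4 and 26 CPM (log2 fold change -2.96, SE 0.081, adjusted p = 2.94e-11). A rise of similar size to the cytokines was seen for Gnb1-ps3 (log2 fold change 9.50, SE 0.31, adjusted p = 5.74e-10), but this is a processed pseudogene whose reads may be shared with a nearly identical copy, so its value is uncertain.

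Of 29 tested death regulators 5 were higher and 3 lower (17.2% and 10.3%, against 7.72% and 18.5% of all genes), and 21 were not called. Under scaling by library size alone 3 were higher and 3 lower, and the list's median turned from 0.09 to -0.23. Cflar, the gene of the caspase-8 inhibitor cFLIP, rose from 126, 131 and 126 CPM to 697, 659.9 and 698 CPM (log2 fold change 2.42, SE 0.057, adjusted p = 6.55e-12). Bid, a pro-apoptotic member that caspase-8 cleaves, went from 21.8, 21.2 and 21.9 CPM to 3.4, 3.33 and 3.48 CPM (log2 fold change -2.67, SE 0.088, adjusted p = 1.03e-10). Of 30 tested growth factor and cytokine receptor genes 3 were higher and 6 lower (10% and 20%), near the shares of all genes. Jag1, a Notch ligand on that list, rose from 25.9, 16.3 and 25.2 CPM to 172, 173 and 176 CPM (log2 fold change 2.95, SE 0.16, adjusted p = 5.98e-07). Receptors of TNF and IL-6 did not move alike. The TNF receptor gene Tnfrsf1b was called higher (log2 fold change 1.38, SE 0.07, adjusted p = 4.37e-09). Tnfrsf1a went from 128, 107 and 132 CPM to 36, 35.7 and 32.6 CPM (log2 fold change -1.82, SE 0.082, adjusted p = 2.46e-09). Il6ra went from 37.9, 32.5 and 41.3 CPM to 11.9, 13.6 and 12.8 CPM (log2 fold change -1.55, SE 0.093, adjusted p = 2.09e-08). Their ligand genes Tnf and Il6 rose, as given above. Mir155hg, the host transcript of miR-155, rose from 8.69, 13.4 and 8.34 CPM to 262, 241 and 275 CPM (log2 fold change 4.68, SE 0.18, adjusted p = 6.51e-08). Adhesion and protease genes had 6 of 32 higher and 2 lower (18.8% and 6.25%), but 3 and 2 under scaling by library size alone. NRF2 targets had 1 of 23 higher and 2 lower (4.35% and 8.7%), or none and 3 under that scaling. The counts were 2 and 2 with DESeq2 size factors, and 3 and 2 with protein-coding genes for scaling. Keap1, the inhibitor of NRF2, was at a log2 fold change of -1.32 (adjusted p = 2.59e-09).

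Several other lists are read against 7.72% higher and 18.5% lower over all genes. Lysosomal and autophagy genes had none of 33 tested higher and 1 lower, Tfeb, the factor that drives lysosomal genes, which fell from 28.6, 26.4 and 32.3 CPM to 7.43, 8.88 and 7.3 CPM (log2 fold change -1.89, SE 0.10, adjusted p = 7.12e-09). Phagocytic and scavenger receptors had 1 of 30 higher and 1 lower. Glycolysis and hypoxia genes had 1 of 26 higher (Adm) and 3 lower, and cholesterol genes 1 of 26 higher and 3 lower (3.85% and 11.5% in both lists). Under scaling by library size alone 8 cholesterol genes, 4 FAK, PYK2 and Src family genes, 2 lysosomal and autophagy genes and 4 phagocytic and scavenger receptor genes were lower. Of 21 tested genes of FAK, PYK2, the Src family and their partners 1 was higher (Yes1) and 2 lower, the adaptor Crk at a log2 fold change of -1.66 (adjusted p = 4.52e-10) and Nedd9 at -1.27 (adjusted p = 1.69e-09). Of the 24 genes of MHC class II and costimulation 4 were higher and 2 lower (16.7% and 8.33%), and Ciita, the master regulator of class II, fell from 153, 228 and 164 CPM to 41.1, 42.9 and 38.6 CPM (log2 fold change -2.15, SE 0.15, adjusted p = 2.55e-06). Cd40 went from 13.2, 20.1 and 12 CPM to 53.7, 55.5 and 56 CPM (log2 fold change 1.87, SE 0.17, adjusted p = 1.77e-05). Cd74 and H2-Eb1 stood at log2 fold changes of 0.65 and 0.62 and did not pass.

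**Figure D3:**
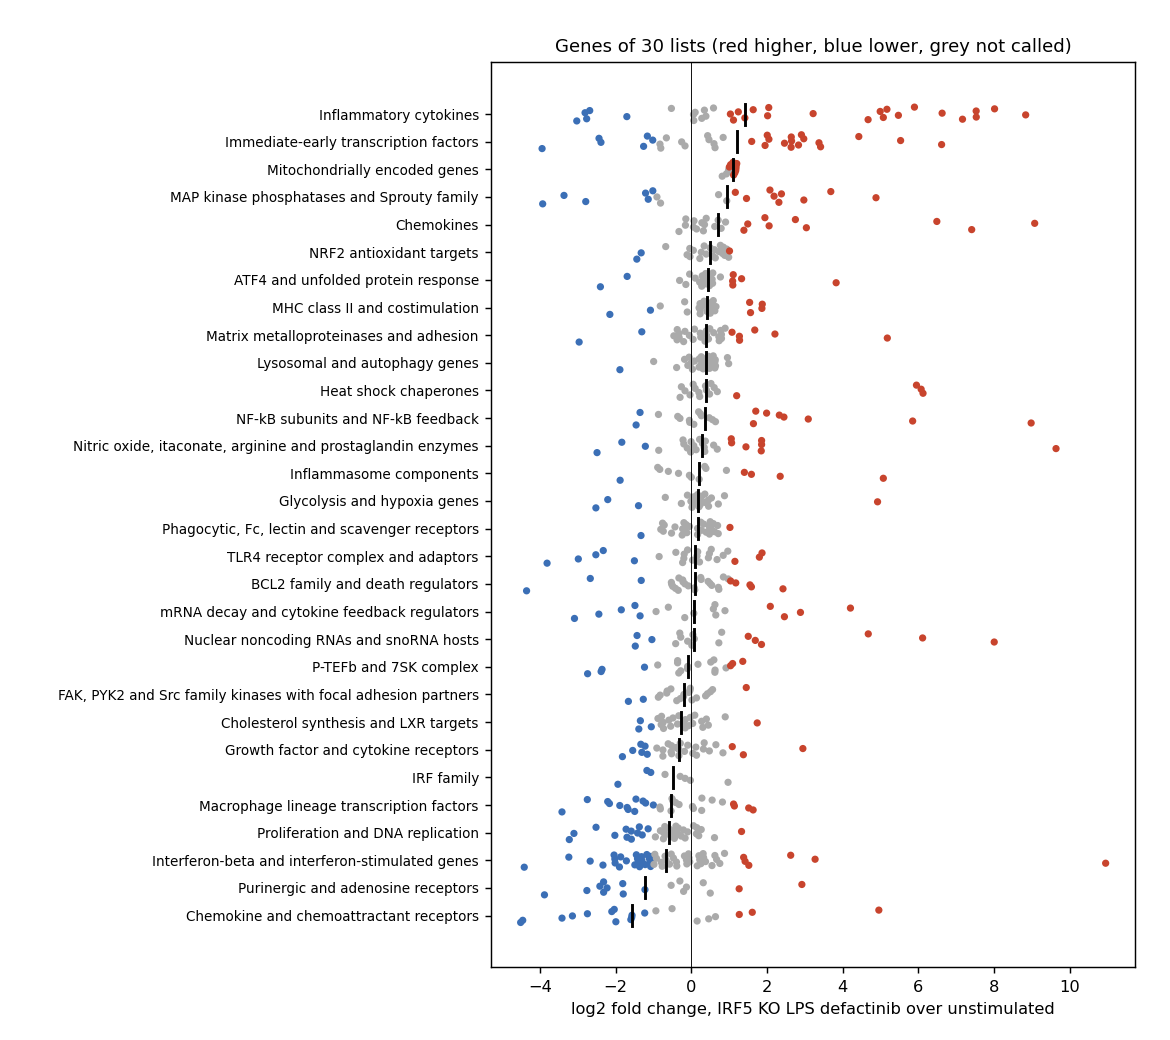
Each point is a tested gene of 1 of 30 lists (rows, ordered by median), placed by its log2 fold change, LPS defactinib over unstimulated, in IRF5 KO macrophages. Red is called higher, blue called lower, grey not called, and the black bar is the list's median, from -1.57 for the chemoattractant receptors to 1.42 for the inflammatory cytokines.

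Called genes differed in gene structure. Of the 1836 tested genes with 1 exon, all gene types together, 21.9% were higher and 14.9% lower, and of the 776 with 2 exons 13.8% and 30.5%. Among protein-coding genes of 1 exon 80 were called higher, 127 lower and 145 not called, so falls outnumbered rises there. Of the 2786 genes with over 16 exons 3.12% were higher and 14.1% lower. Among protein-coding genes the median number of exons was 6 in the 672 called higher, 7 in the 2370 called lower and 10 in the 9046 not called, and GC content differed little, with medians of 50.4%, 50.8% and 49.3%. Exon number and gene length go together, and their separate parts were not tested.

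**Figure D4:**
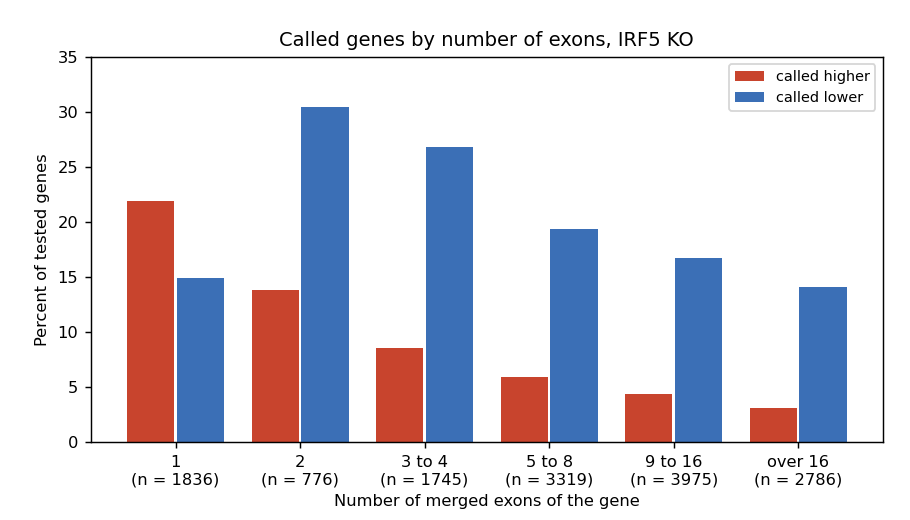
Percent of tested genes (y axis) called higher (red) or lower (blue) in IRF5 KO macrophages, by the number of merged exons of the gene (x axis, with the number of genes). The share higher runs from 21.9% in genes of 1 exon to 3.12% in genes of over 16 exons, and the share lower is highest, at 30.5%, in genes of 2 exons.

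The 3 libraries labelled IRF5 KO, LPS with DMSO, are set beside these values without a test, since they use the same unstimulated controls in any comparison and stand apart among themselves. Egr1 was at 906, 872 and 7.23 CPM in them, Rn7sk at 64.5, 60.5 and 0.628 CPM, Hspa1a at 74.5, 72.6 and 2.53 CPM and Gm26917 at 26530, 26270 and 117 CPM. In each of these genes replicates 1 and 2 were nearer the LPS defactinib libraries and replicate 3 nearer the unstimulated ones. For Hspa1a and Gm26917 replicate 3 still stood above every unstimulated library. Gm26917 took 2.57% and 2.56% of reads in replicates 1 and 2 and 0.0125% in replicate 3, where the WT libraries labelled LPS with DMSO had 0.0112% to 0.0122%. The cause of this difference of replicate 3, an error of labels included, was not tested, and no direction is drawn from this group. Exoc8, at 1.15, 1.18 and 31.1 CPM, and Cebpa, at 8.01, 8.33 and 78.3 CPM, which fell, showed the same split. Irgm2 was at 0.36, 0.496 and 69.6 CPM, with replicate 3 above every unstimulated library. Adora2a did not split this way, at 56.8, 52.5 and 75.5 CPM against 117, 127 and 117 CPM in the LPS defactinib libraries. Ptgs2 was at 406, 416 and 516 CPM, Tnf at 2463, 2457 and 1181 CPM and Ifnb1 at 32.4, 31.7 and 19.2 CPM, so those genes were high in all 3. The chi-square per gene between libraries of that group was 2.33 between replicates 1 and 2 and 441 and 425 from replicate 3, against 7.09 to 36.8 in the unstimulated group and 4.79 to 18.2 in the LPS defactinib group.

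The same treatment was given to WT macrophages, and the difference between the genotypes was tested as an interaction over the 12 libraries of the 4 groups. Of 15262 genes tested, 1084 had a higher log2 fold change in IRF5 KO (7.1%) and 727 a lower one (4.76%). Without WT LPS defactinib replicate 3, which stood apart from the other 2, the counts were 1283 and 706, and without WT unstimulated replicate 3 they were 1069 and 621. Scaling by library size alone turned the balance, to 832 higher and 1225 lower. Of the 1179 genes called higher in IRF5 KO in this fit and the 1346 called higher in WT, 657 were shared, which is 55.7% and 48.8% of the lists, and of the 2730 and 2669 called lower 1700 were shared (62.3% and 63.7%). These lists are 7.73% and 8.82% of all tested genes for the rises in IRF5 KO and WT, and 17.9% and 17.5% for the falls. Another 57 genes were called in opposite directions. Among called genes whose mean level over the 12 libraries reached 3 on the log2 CPM scale and with responses that did not overlap between the genotypes, the 5 with the largest excess in IRF5 KO were Ereg (difference 4.88, SE 1.10, adjusted p = 0.00897), F3 (difference 4.49, SE 0.464, adjusted p = 4.86e-05), Prdm1 (difference 4.47, SE 0.253, adjusted p = 1.16e-07), Mex3b (difference 4.42, SE 0.174, adjusted p = 2.16e-08) and Gpr183 (difference 4.33, SE 0.241, adjusted p = 9.26e-08). Below that level, Areg (difference 5.90, SE 0.53, adjusted p = 6.46e-06) and the pseudogene Gnb1-ps3 (difference 6.28, SE 1.23, adjusted p = 0.00267) had larger differences. Prdm1, a transcriptional repressor, was at 12.1, 11.6 and 12 CPM and 100.3, 100.2 and 96.7 CPM in IRF5 KO and at 20.3, 20.5 and 21 CPM and 9.18, 4.8 and 9.28 CPM in WT, so it rose in one genotype and fell in the other. F3, the tissue factor that starts clotting, showed the same pattern, at 53, 53.6 and 70.9 CPM and 22.9, 7.57 and 13.4 CPM in WT. Gpr183, a receptor for oxysterols, was at 36.8, 40.1 and 37.4 CPM and 44.1, 42.2 and 40.8 CPM in IRF5 KO, where it did not pass, and fell in WT from 17.1, 17.6 and 12.5 CPM to 1, 0.562 and 1.05 CPM.

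The difference between the genotypes is given for single genes and then by list, without a test of the lists. Il12b went from 2.9, 2.56 and 4.34 CPM to 62.4, 15.3 and 28.5 CPM in WT (difference 4.08, SE 0.614, adjusted p = 9.66e-04), Tnf from 95.4, 96.8 and 133 CPM to 1025, 704 and 659 CPM (difference 3.02, SE 0.225, adjusted p = 9.34e-07) and Nlrp3 from 118, 122 and 123 CPM to 75.6, 46.6 and 60.5 CPM (difference 3.34, SE 0.184, adjusted p = 9.02e-08). Of the 33 inflammatory cytokine genes 13 were higher in IRF5 KO and 2 lower, of the 32 immediate-early factors 23 and 1, and of the 22 NF-kB genes 8 and 1, where 7.1% and 4.76% of all genes were called. Of the 60 interferon genes none was higher and 4 were lower. In this fit the interferon list had a median log2 fold change of -0.68 in IRF5 KO and 0.66 in WT, where 12 were called higher and 2 lower (against 8.82% and 17.5% of all genes in WT), and the part of WT LPS defactinib replicate 3 in the WT values was not tested. Among single genes, Ifnb1 had log2 fold changes of 10.94 and 11.24 in the 2 genotypes (difference -0.30, SE 5.03, adjusted p = 0.978) and Il6 of 7.52 and 5.39 (difference 2.13, SE 1.90, adjusted p = 0.455), and neither passed. Both differences had a large SE, so differences of several log2 units in either direction were not detectable for Ifnb1. On the lower side, Map3k14, the NF-kB-inducing kinase NIK, fell from 88.7, 118 and 97.8 CPM to 7.27, 6.77 and 7.14 CPM in IRF5 KO and from 64.4, 70.2 and 70.8 CPM to 15.8, 29.7 and 38.4 CPM in WT (difference -2.55, SE 0.338, adjusted p = 1.73e-04), and Relt (difference -2.50, SE 0.246, adjusted p = 9.53e-06) likewise fell further in IRF5 KO. Igfbp4, an IGF-binding protein gene, went from 1.42, 1.13 and 1.24 CPM to 7.28, 10.3 and 13.4 CPM in WT and from 9.27, 7.76 and 10.7 CPM to 14, 14.9 and 13 CPM in IRF5 KO (difference -2.43, SE 0.283, adjusted p = 3.97e-05). Dpysl5 had a difference of -2.69, with WT at 2.47, 2.56 and 3.89 CPM and 14.3, 15.4 and 29.5 CPM and IRF5 KO at 13, 20.9 and 13.9 CPM and 15.4, 18.3 and 15.6 CPM. Both started lower in WT and ended near the IRF5 KO level. Ms4a4a (difference -3.36, SE 0.887, adjusted p = 0.0199) was at 5.27, 7.05 and 36.2 CPM in the WT LPS defactinib group, and its difference was -1.96 without replicate 3 of that group and was not called without WT unstimulated replicate 3, without a filter on low counts (adjusted p = 0.0524, edgeR) or in a test against the 2-fold limit (adjusted p = 0.151). Ereg lost its call under a voom fit and under a test against the 2-fold limit.

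**Figure D5:**
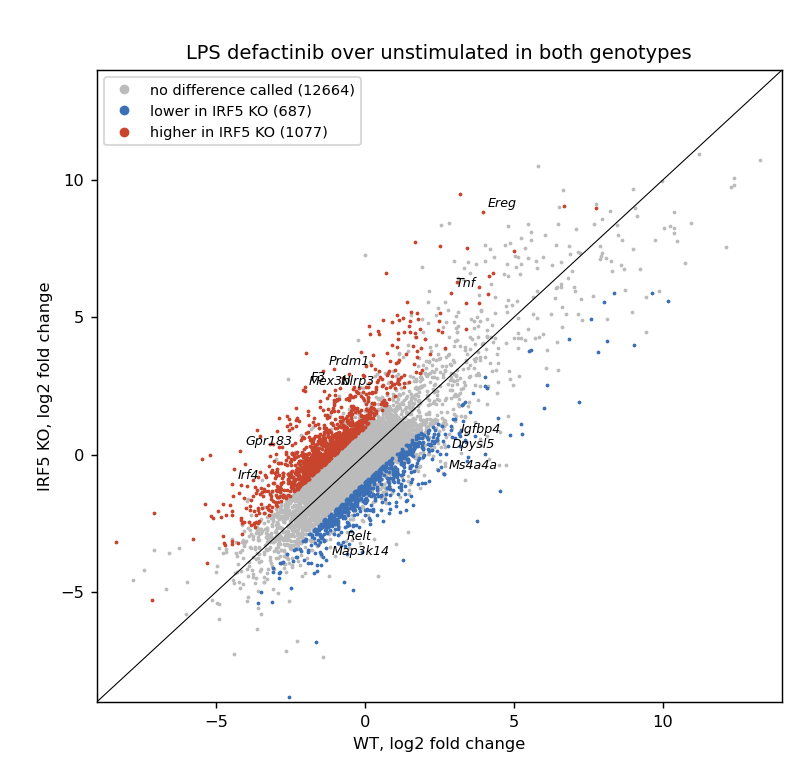
Log2 fold change of LPS with defactinib over unstimulated in WT (x axis) and IRF5 KO (y axis) for the 14428 genes tested in both comparisons, each point 1 gene, with the line of equal change. Red marks the 1077 genes higher in IRF5 KO and blue the 687 lower, and Ereg, Prdm1, F3, Mex3b and Gpr183 stand above the line.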

How the data were processed

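RNA-seq was made from GM-CSF BMDMs of IRF5 KO and WT mice, 18 libraries in 6 groups of 3. The authors aligned paired reads to mm10 with STAR and counted uniquely mapped, reverse-stranded read pairs over the exons of each gene with featureCounts (1.6.3 per the file header), and they deposited the raw counts as 1 table. Symbols were taken from GENCODE M21 and matched 50376 of 50600 gene IDs. Groups came from the sample labels. In R 4.3.3, genes with enough reads by filterByExpr were fitted with edgeR 4.0.16 (robust quasi-likelihood F test, TMM factors from all 18 libraries) over the 6 libraries of the comparison, and the genotype difference as an interaction over 12. A call needed a Benjamini-Hochberg adjusted p below 0.05 and a log2 fold change beyond 1. SE is the absolute log2 fold change divided by the square root of F. On simulated counts 96 of 100 genes changed by 1.5 (log2) and 96 of 96 changed by 3 were recovered, with 0 false calls in 14243 genes. As many genes were changed up as down, all others were left unchanged, and a false call also needed a change beyond 2-fold. TMM factors were refitted to the simulated libraries. The data have 1114 genes called higher and 2677 lower, a setting that was not simulated, so false calls in the data were not measured. The members and the 36 gene lists were chosen with earlier results of these data known. Genes were named by rule: Irf5, Ptk2b, Ptk2 and a few cytokines, the 3 highest members of each list per kb of exon and its 3 largest called changes, of the genes whose average log2 CPM reached 3 the 15 that rose most and the 15 that fell most, and the 5 largest interactions each way among called genes with that average over the 12 libraries and responses that did not overlap between genotypes. Other named list members were chosen after their values were seen. Alternatives were other scalings, filters, tests (DESeq2 1.42.0, limma 3.58.1) and left-out libraries. Some genes are not reported here.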

Additional observations from a re-analysis of the deposited data

Results flagged for a closer look

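The response to LPS with defactinib differed between IRF5 KO and WT macrophages for 1811 genes in edgeR's interaction test. The genes named for it were Ereg (difference of log2 fold changes 4.88), F3 (4.49), Prdm1 (4.47), Mex3b (4.42) and Gpr183 (4.33), with the larger value in IRF5 KO, and Ms4a4a (-3.36), Dpysl5 (-2.69), Map3k14 (-2.55), Relt (-2.50) and Igfbp4 (-2.43), with the lower one.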

How the results depend on the processing

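Of 216 gene results, 184 kept their call and direction under every alternative. Leaving out each of the 6 libraries in turn gave 3844 to 3936 called genes, and leaving out each of the 12 gave 1663 to 2004 for the difference between genotypes. With no fold threshold 10384 genes were called (4762 higher, 5622 lower), and 4028 for the genotype difference (2198 and 1830). A filter of 5 CPM in 3 libraries, which left 9957 genes tested, gave 2085 calls (416 and 1669). For the genotype difference the same filter left 10288 genes tested and 393 lower in IRF5 KO. Scaling by library size alone gave 832 genes higher and 1225 lower in IRF5 KO, and a fit of all 18 libraries 413. The cause was not tested. Testing against the 2-fold limit inside the model gave 2694 calls, and for the genotype difference 528 (453 higher, 75 lower). Under the gene length correction mt-Atp8 reversed, with a log2 fold change of -0.17. With protein-coding genes alone used for scaling, an alternative chosen after seeing the data, 1282 genes were higher and 2433 lower. The signs of the medians of 9 lists with medians near 0 turned under scaling by library size alone, among them those of TLR4 genes, glycolysis, inflammasome and phagocytic receptors. DESeq2 called 3677 genes and limma-voom 3816. Depth limits genes such as Ifnb1, with 1 unstimulated read, whose fold carries a wide interval.

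No pairing of the libraries by their shared replicate numbers was seen, although 3 libraries per group cannot exclude one. The correlations of same-numbered unstimulated and LPS defactinib libraries, as deviations from their group means, were -0.022, -0.076 and -0.181. Those of the other pairs ran from -0.144 to 0.244. With the replicate block 3769 genes were called (1104 higher, 2665 lower), and 1789 for the genotype difference (1098 and 691).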

Other observations

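Called shares of gene classes outside the lists are given against 7.72% higher and 18.5% lower over all genes. Of the 30 tested small nucleolar RNA genes 13 were higher and 4 lower (43.3% and 13.3%), and of the 30 tested microRNA genes 11 and 4 (36.7% and 13.3%), with median log2 fold changes of 0.95 and 0.63. The share of small noncoding RNAs varied between libraries of the same condition, as given above. Processed pseudogenes rose in 122 of 968 tested (12.6%) and fell in 36 (3.72%), and transcripts of the annotation class TEC rose in 103 of 233 (44.2%) and fell in 52 (22.3%). Heatr9, a gene of little known function, was among the largest rises, from 0.113, 0.215 and 0.281 CPM to 17.4, 18.5 and 18.2 CPM (log2 fold change 6.50, SE 0.18, adjusted p = 2.90e-11). Hdc, the enzyme of histamine synthesis, rose from 2.3, 2.15 and 1.77 CPM to 7.51, 7.3 and 7.83 CPM (log2 fold change 1.86, SE 0.13, adjusted p = 9.27e-08), a call that was lost in the fits of 12, 15 and 18 libraries (adjusted p = 0.0865, 0.0661 and 0.0611). The edgeR adjusted p-values are those of the comparison of IRF5 KO libraries.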
